A study of Mus musculus with 10 samples.

Results

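Mouse embryonic stem cells of the line E14Tg2a, grown in serum plus LIF (S+L ESC), were divided by their level of *Nanog*, a homeodomain transcription factor of the naive pluripotent state (ENSMUSG00000012396, GRCm38 chromosome 6, 122707489 to 122714633, plus strand). The 309 S+L ESC of 2782 cells in the E14Tg2a table were ranked by *Nanog* UMIs (unique molecular identifiers, each standing for 1 captured transcript) per 10000 UMIs of the cell, with ties kept in column order. The 103 lowest cells are called Nanog-low, the next 103 Nanog-middle and the 103 highest Nanog-high. The *Nanog* counts themselves chose the groups, so the *Nanog* levels below describe that choice and are not a finding.

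The cells were wild type and were kept on gelatin in Knock-out DMEM with 15% FBS and LIF. They were compared side by side with 227 cells of 2i ESC, the same wild-type line in serum-free N2B27 with LIF, the MEK inhibitor PD0325901 at 0.4 µM and the GSK3β inhibitor CHIR99021 at 3 µM, kept so for at least 4 days. Both were single libraries of 10x Chromium 3′ scRNA-seq in a study of how ESC pass through epiblast-like cells (EpiLC) to primordial germ cell-like cells (PGCLC) in embryoid bodies (EB). With 1 library per condition no test was possible, a condition cannot be told apart from its library, and cells of 1 library are not replicates. Intervals are therefore exact 95% intervals that cover counting error only.

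In ESC, *Nanog* works in a network with *Pou5f1* and *Sox2*, which are needed for pluripotency as such, and with factors of the naive state such as *Esrrb*, *Klf4*, *Tbx3* and *Zfp42*. LIF acts through STAT3, serum supplies BMP signals that induce *Id* genes, and ERK signaling favors exit from the naive state. The level of NANOG is known to vary from cell to cell in serum cultures, and the 2 inhibitors of 2i medium block ERK signaling and stabilize β-catenin.

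S+L ESC had 10103178 UMIs in all and a median of 28909 UMIs per cell. A *Nanog* UMI was found in 278 of 309 cells (90.0%, 86.1% to 93.1%), and the library had 144 CPM (UMIs per 1000000 UMIs, 137 to 152). For comparison, 7 of the 324 d4 EB cells that the authors did not list as PGCLC had a *Nanog* UMI (2.16%, 0.873% to 4.40%), at a median depth of 21487.5 UMIs. The d4 EB library had only 21.6 CPM of *Nanog* in all. This share therefore does not measure free *Nanog* RNA in S+L ESC, which was not measured. The Nanog-low cells held 143 *Nanog* UMIs, from 0 to 5 per cell, and 31 of them had 0. The Nanog-middle cells held 483, from 2 to 12 per cell, and the Nanog-high cells 831, from 3 to 19 per cell. In CPM these were 46.4 (39.1 to 54.7), 128 (117 to 140) and 257 (239 to 275). The boundaries fell inside a continuous range of values. The last Nanog-low cell had 0.9464 and the first Nanog-middle cell 0.9568 *Nanog* UMIs per 10000, and the last Nanog-middle and first Nanog-high cell had 1.684 and 1.685.

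**Figure D1:**
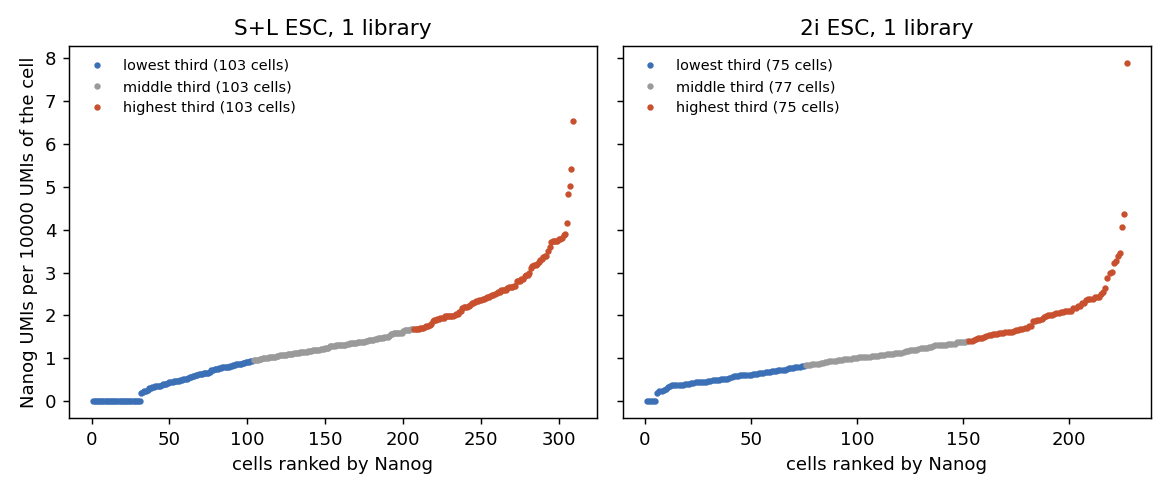
*Nanog* UMIs per 10000 UMIs of each cell (vertical axis) against the rank of the cell (horizontal axis) in S+L ESC (left) and 2i ESC (right), with 1 point per cell, colored by group. In S+L ESC 31 cells lie at 0 and the highest is at 6.54, while in 2i ESC 5 cells lie at 0 and the highest is at 7.89, and neither curve has a step between groups.

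Part of any such ranking is counting noise, so each cell's UMIs were divided at random into 2 equal parts, the cells were ranked on *Nanog* in one part and *Nanog* was counted in the held-out part. In S+L ESC the Nanog-low cells then had 91.8 CPM and the Nanog-high cells 191 CPM, a ratio of 2.08 (1.70 to 2.55), in place of 5.53 (4.62 to 6.65) when the same UMIs ranked and measured the cells. In 2i ESC the ratio in the held-out UMIs was 1.33 (1.07 to 1.64), from 110 to 146 CPM, in place of 3.82 (3.18 to 4.60). The same counts over all cells of a library, without groups, describe its spread. At the mean share of the library and the depth of each cell, Poisson counts would leave 9.09 of 309 S+L ESC at 0, and 31 were at 0. For 2i ESC the same calculation gave 7.56 cells, and 5 of 227 were at 0. After every cell was thinned to 18231 UMIs, the variance of *Nanog* divided by its mean, which is 1 for Poisson counts, was 1.79 in 278 S+L ESC and 1.22 in 218 2i ESC. The thinned ratio was also further above 1 in S+L ESC than in 2i ESC for *Zfp42* (3.35 and 1.80) and *Tbx3* (2.33 and 1.53), but was similar for *Esrrb* (1.0 and 0.951) and *Klf2* (3.21 and 3.22) and lower in S+L ESC for *Klf4* (2.11 and 2.34). More cells at 0 than Poisson counts would leave were also found in S+L ESC for *Klf4* (19 against 3.51) and *Tbx3* (61 against 27.0). In 2i ESC both genes had such an excess too, with 4 cells against 0.640 for *Klf4* and 7 against 3.93 for *Tbx3*. These are single values per library and their differences were not tested.

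The groups were similar in cell quality, and Nanog-middle cells were the deepest. Median depth was 25148 UMIs in Nanog-low, 31536 in Nanog-middle and 27540 in Nanog-high cells, and a median of 4246, 4757 and 4460 genes was detected. The median share of mitochondrial UMIs was 4.00%, 4.38% and 4.43%, that of S phase genes 0.281%, 0.271% and 0.308%, and that of G2 and M phase genes 0.531%, 0.508% and 0.577%. Scrublet called 3, 7 and 2 cells as doublets. The part of depth and cell cycle in the differences below was examined through cells thinned to equal depth and through rankings within depth bins and within classes of G2 and M phase share. Of the S+L ESC barcodes, 2 also occur in another library of the table.

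Genes were compared as CPM ratios of Nanog-high over Nanog-low cells, and counted as higher or lower from 1.5-fold on, with 1 CPM added to both levels. Of 5018 genes with at least 100 UMIs in both groups together, 69 were higher (1.38%) and 47 lower (0.937%) in Nanog-high cells, and the median log2 ratio was 0.06. When all ratios were divided by the median ratio, 43 were higher and 68 lower, so the balance between both directions depends on the scaling. Most of these genes were sparse. Among the 657 genes with at least 1000 UMIs, *Epop* was the only 1 past 1.5-fold, and among the 683 genes with at least 500 and fewer than 1000 UMIs, *Tbx3*, *Rpp25*, *Pdgfa* and *Arglu1* were higher and *Lima1* lower (the last 4 named after their values were seen). The Nanog-middle level of 60 of the 69 higher and 40 of the 47 lower genes lay between the outer groups, on which these genes were chosen.

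**Figure D2:**
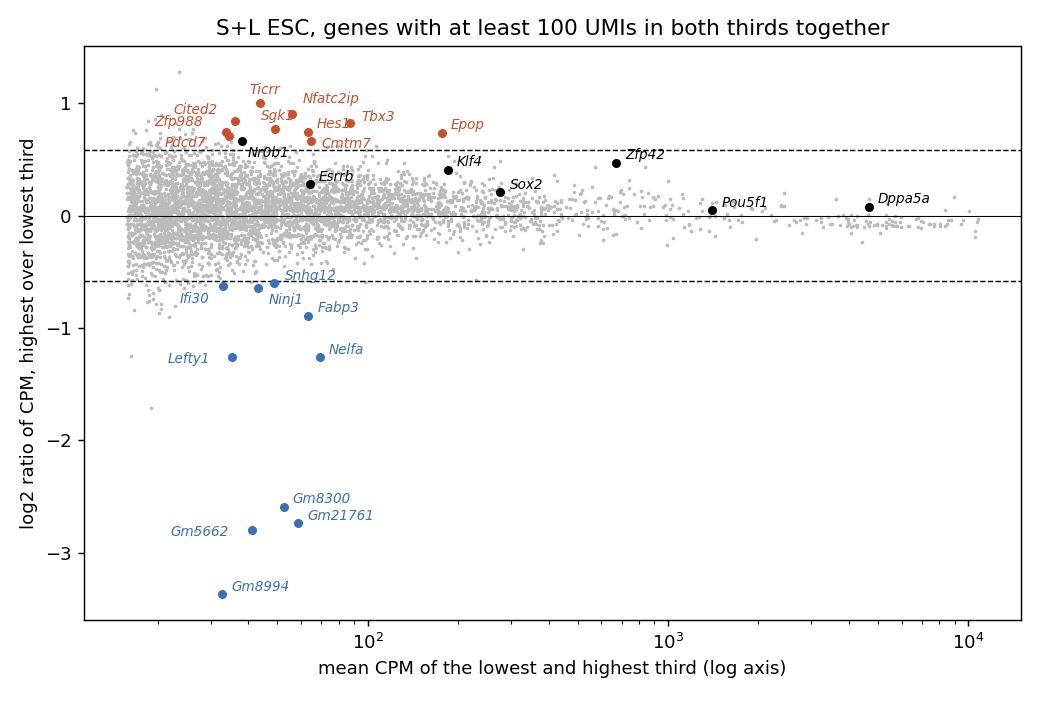
Log2 ratio of Nanog-high over Nanog-low cells (vertical axis) against the mean CPM of both groups (horizontal log axis) for 5018 genes of S+L ESC, with dashed lines at 1.5-fold. Red and blue points are the 10 highest and 10 lowest ratios among genes with at least 200 UMIs, black points are further pluripotency genes, and 4 predicted genes lie far below all others.

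The naive factors were higher in Nanog-high cells as a group, by less than 1.5-fold in most cases. Of 20 listed naive genes other than *Nanog*, 18 passed the count minimum, 2 of these were at least 1.5-fold higher and none was lower. A ratio above 1 was found for 16 of the 18, beside 61.2% of all genes. The median log2 ratio was 0.29 against 0.06 over all genes. *Tbx3*, a T-box factor that maintains ESC self-renewal (chromosome 5, 119670669 to 119684724), had 62.7 CPM in Nanog-low, 100 CPM in Nanog-middle and 112 CPM in Nanog-high cells, a ratio of 1.79 (1.5 to 2.14). *Nr0b1*, which encodes the orphan nuclear receptor DAX1, had 29.2, 35.4 and 46.9 CPM (ratio 1.61, 1.23 to 2.11). Both were ordered by group, with the middle cells close to the high ones for *Tbx3*.

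*Zfp42*, the REX1 zinc finger gene that is a common reporter of the naive state (chromosome 8, 43295063 to 43306980), had 563, 661 and 779 CPM (ratio 1.38, 1.30 to 1.47). *Klf4*, a Krüppel-like factor downstream of LIF, had 158, 207 and 211 CPM (1.33, 1.19 to 1.5). *Tfcp2l1*, another LIF target, had 44.8, 53.7 and 63.3 CPM (1.41, 1.13 to 1.77). The intervals of these 3 genes lay above 1, and they did not reach 1.5-fold. *Esrrb*, the nuclear receptor often named as the closest partner of *Nanog*, had 57.8, 57.6 and 70.4 CPM, and its interval included 1 (1.22, 0.997 to 1.49). *Klf2*, *Tcl1* and *Klf5* had ratios of 1.09 (1.01 to 1.18), 1.23 (1.04 to 1.45) and 1.28 (1.09 to 1.5). *Gbx2* (0.725, 0.511 to 1.02) and *Pecam1* (0.951, 0.678 to 1.33) were the 2 naive genes with ratios under 1, both with intervals that include 1. *Prdm14* and *Dppa3*, which act in the germline as well as in naive cells, were too sparse to be counted. *Prdm14* had 4.22, 10.3 and 8.95 CPM, and *Dppa3* had 7.79, 4.23 and 6.17 CPM.

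The core factors were nearly level across the groups. *Pou5f1*, which encodes OCT4, had 1377, 1405 and 1431 CPM (ratio 1.04, 0.996 to 1.08), so a difference beyond 1.08-fold is outside its counting interval. *Sox2* had 256, 265 and 297 CPM (1.16, 1.06 to 1.28). All 16 core genes were measured and none reached 1.5-fold in either direction. Ratios above 1 were found for 13 of the 16, beside 61.2% of all genes, and the list median log2 ratio was 0.16. Among them *Sall4* (1.32, 1.11 to 1.57) and *Tdgf1*, the Nodal co-receptor (1.24, 1.18 to 1.30), were on the high side, and *Utf1*, a chromatin factor of ESC, had a ratio of 0.907 (0.836 to 0.983).

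**Figure D3:**
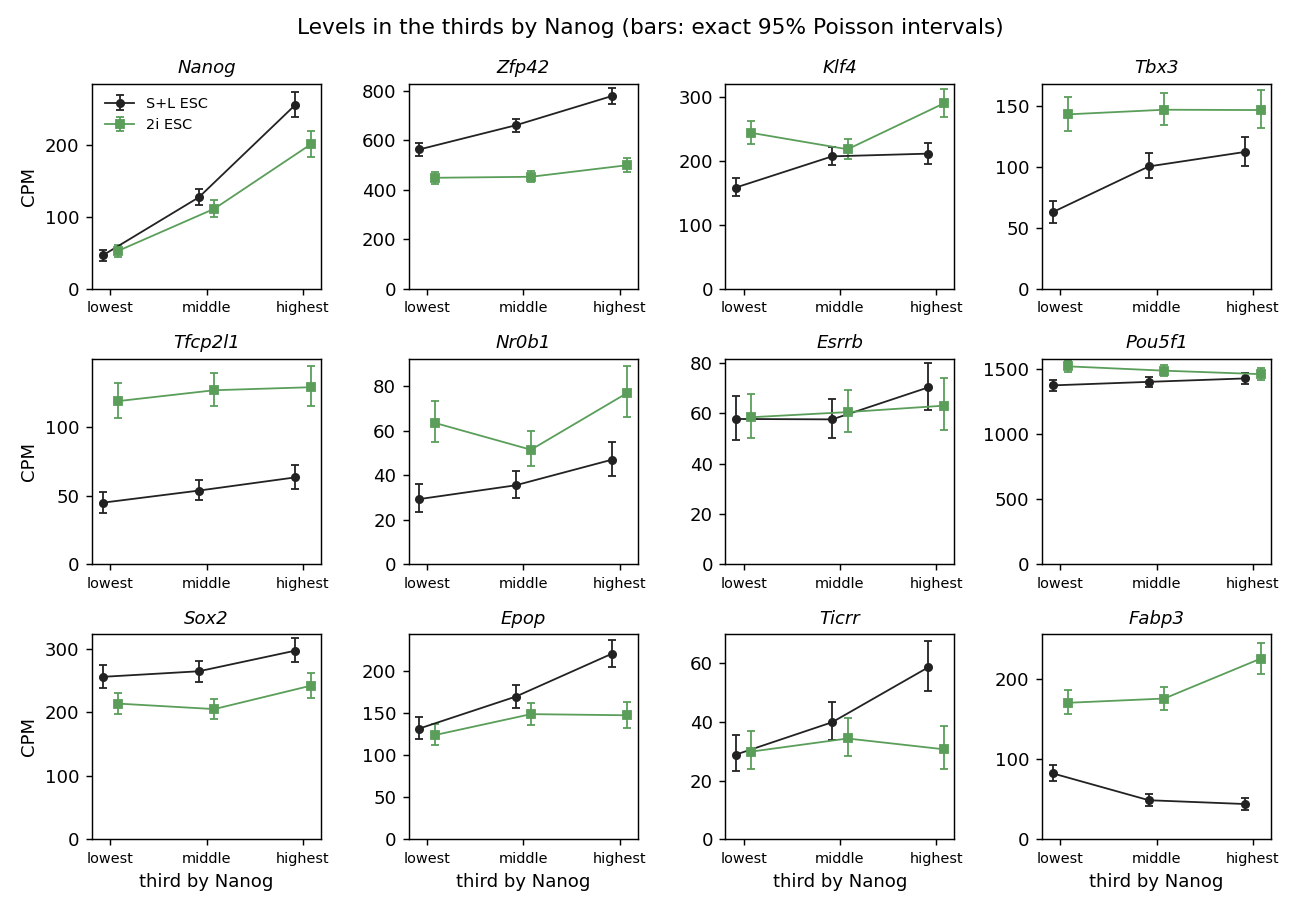
CPM (vertical axes, each from 0) of 12 genes in Nanog-low, Nanog-middle and Nanog-high cells of S+L ESC (black circles) and 2i ESC (green squares), with exact 95% Poisson intervals. *Tbx3* goes from 62.7 to 112 CPM in S+L ESC and from 143 to 146 CPM in 2i ESC, and *Pou5f1* stays between 1377 and 1524 CPM in all 6 groups.

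Markers of a later epiblast state were not raised in Nanog-low cells as a group. Of 22 formative and primed genes, 9 were measured, none was at least 1.5-fold higher and 1 lower in Nanog-high cells. Ratios above 1 were found for 4 of the 9, beside 61.2% of all genes. The median log2 ratio was -0.001, beside 0.06 over all genes. The lower gene was *Lef1*, a nuclear effector of WNT signaling, with 19.5, 17.2 and 12.3 CPM (0.634, 0.414 to 0.962). *Dnmt3b*, a de novo DNA methyltransferase that is induced in the formative epiblast, had 34.4, 31.5 and 31.2 CPM (0.906, 0.683 to 1.20). Of the 9 measured genes, *Dnmt3l* (1.30, 1.09 to 1.56) and *Tcf15* (1.17, 1.04 to 1.32) had intervals above 1. Besides *Lef1*, *Tead2* had an interval below 1 (0.808, 0.687 to 0.950). *Otx2*, which drives the formative program, had 14.3, 12.2 and 9.88 CPM, with too few UMIs to be counted and an interval of its ratio from 0.425 to 1.12. *Fgf5*, a defining marker of primed cells, had 0 UMIs in all 309 cells, which allows up to 0.297 CPM.

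The defining markers of primitive endoderm and primitive streak were at or near 0 in all 3 groups. *Gata6*, which specifies primitive endoderm, had 1 UMI in Nanog-low, 3 in Nanog-middle and 2 in Nanog-high cells, and *T*, a marker of primitive streak, had 0, 2 and 0. Of 18 primitive endoderm genes only *Sparc* and *Lamc1*, which are not specific to that lineage, passed the count minimum, and of 13 primitive streak and 10 trophoblast genes none did. The trophoblast list summed to 29.5, 22.2 and 20.1 CPM and the primitive streak list to 4.54, 7.14 and 4.63 CPM. *Ascl2* of the trophoblast list had 11.4, 10.6 and 8.03 CPM, and *Gata2* had 13 UMIs in Nanog-low and 1 in Nanog-high cells. Of 12 neural and surface ectoderm genes only *Tubb3*, a tubulin gene, passed the minimum, with 19.2, 20.6 and 25.9 CPM (1.35, 0.959 to 1.92), and *Sox11* had 10.4, 5.55 and 8.64 CPM. *Ascl2*, *Gata2*, *Tubb3* and *Sox11* were named after their values were seen.

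Among genes with at least 200 UMIs in both outer groups together, the 10 with the highest ratios included 1 member of the pluripotency lists, *Tbx3*. *Ticrr*, which encodes a replication initiation factor (chromosome 7, 79660196 to 79698148), had 28.9 CPM in Nanog-low, 39.9 in Nanog-middle and 58.7 in Nanog-high cells, a ratio of 2.03 (1.57 to 2.64). *Nfatc2ip*, named for the binding of its protein to an NFAT factor (chromosome 7, 126382854 to 126396737), had 38.6, 47.6 and 73.5 CPM (1.90, 1.52 to 2.39). *Cited2*, a co-activator that binds CBP and p300, had 25.6, 34.4 and 46.6 CPM (1.82, 1.38 to 2.42). All 3 were ordered by group. *Epop*, a partner of the Polycomb complex PRC2 and of Elongin BC (chromosome 11, 97627389 to 97629702), had 132, 170 and 221 CPM, and with 406 and 715 UMIs in the outer groups its ratio was among the better measured ones (1.67, 1.48 to 1.90). *Sgk1*, a serum- and glucocorticoid-induced kinase, had 36.0, 53.9 and 62.4 CPM (1.73, 1.37 to 2.20). *Hes1*, a transcriptional repressor best known as a Notch target, had 46.7, 43.6 and 79.3 CPM (1.70, 1.38 to 2.1) and was the only one of the 10 whose Nanog-middle level lay below the Nanog-low level. *Zfp988*, *Pdcd7* and *Cmtm7* completed these 10, with ratios of 1.70, 1.66 and 1.60.

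Of these 10 genes, 7 remained past 1.5-fold when cells were thinned to 18231 UMIs and ranked again, which left out 31 shallow cells, and all 10 stayed above 1. In the held-out UMIs, which the ranking did not use, 7 were past 1.5-fold and 9 above 1, although the genes had been chosen on ratios that include these UMIs. *Pdcd7* had a ratio of 0.997 there, while *Nfatc2ip* (1.76), *Tbx3* (1.62) and *Sgk1* (1.87) stayed past 1.5-fold, *Epop* was at 1.48 and *Ticrr* at 1.53. *Zfp42* and *Klf4* had ratios of 1.34 and 1.44 in the held-out UMIs.

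The largest differences in the other direction rested on 2 cells. *Gm8994*, *Gm5662*, *Gm21761* and *Gm8300* are predicted genes, and *Gm5662* was on the list of genes of the 2-cell embryo, a transient program that a few ESC of a culture are known to enter. *Gm8994* had 60.4, 1.85 and 4.94 CPM, *Gm5662* 72.7, 14.5 and 9.57 CPM, *Gm21761* 103, 8.99 and 14.5 CPM and *Gm8300* 90.6, 15.3 and 14.2 CPM, in the order Nanog-low, Nanog-middle and Nanog-high. Genes of such families can have near-identical copies, so the split of reads between them is uncertain. Of the UMIs of these genes in Nanog-low cells, 97.8%, 99.1%, 99.4% and 99.3% came from the same 2 cells. *Nelfa*, which encodes a subunit of the negative elongation factor, had 98.0, 39.6 and 40.4 CPM, and 66.6% of its Nanog-low UMIs were from these cells.

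These cells also held most UMIs of the 2-cell markers. Summed over the 11 listed markers found in the table (*Zscan4* genes, *Tmem92*, *Zfp352*, *Gm5662* and others, without the more broadly used *Arg2*), they had 246 and 89 UMIs. The first cell had 4, 22 and 30 UMIs of *Zscan4c*, *Zscan4d* and *Zscan4f*, and the second 15, 5 and 17. The first had 1 *Nanog* UMI of 11281 UMIs and the second 0 of 14194. Both also had little *Pou5f1*, with 2 UMIs each, which is 1.77 and 1.41 per 10000, where Nanog-low cells as a whole had 1377 CPM. Neither was called a doublet.

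Markers of the 2-cell program were not restricted to Nanog-low cells. Altogether 9 of 309 S+L ESC had at least 9 UMIs of the 2-cell markers (2.91%, 1.34% to 5.46%), of which 2 were Nanog-low, 3 Nanog-middle and 4 Nanog-high, and 284 had 0. The other 7 had 9 to 64 such UMIs, with 7 to 19 *Nanog* UMIs and 13 to 105 *Pou5f1* UMIs each. The minimum was not scaled to depth, and these cells held 55937 to 78719 UMIs, apart from 1 Nanog-high cell with 15953. The library median was 28909 UMIs per cell. Per 10000 UMIs they had 1.24 to 10.3 UMIs of the markers, where the 2 Nanog-low cells had 218 and 62.7. Their *Pou5f1* was at 8.15 to 16.1 per 10000. Of the other libraries, d2 EB had 1 cell with at least 9 such UMIs and the rest had 0. In 2i ESC 0 of 227 cells reached that number, which allows up to 1.32% of cells, and 2i ESC had no UMI of these markers at all.

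**Figure D4:**
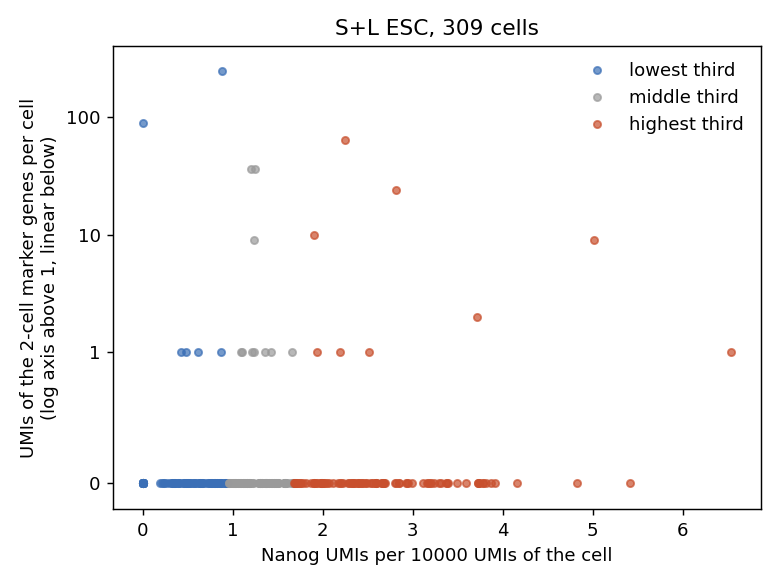
UMIs of the 2-cell markers in each of 309 S+L ESC (vertical axis, logarithmic above 1 and linear below) against *Nanog* UMIs per 10000 (horizontal axis), colored by group. The 2 cells with 246 and 89 UMIs are Nanog-low and most cells lie at 0, and 4 of the 9 cells with at least 9 UMIs are Nanog-high.

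Without the 2 cells, and after ranking the remaining 307 again, 72 genes were higher and 36 lower, with 59 of the 69 and 33 of the 47 still counted. Far fewer of the same genes were still counted in thinned cells (12 of the 69 and 6 of the 47, with 3220 genes measured) and in held-out UMIs (11 and 8, with 3112 measured), while 68 and 65 of the 69 kept a ratio above 1 and 40 and 46 of the 47 a ratio below 1. The direction of all 4 predicted genes turned, with log2 ratios of 1.39 for *Gm8994*, 2.70 for *Gm5662*, 3.25 for *Gm21761* and 3.22 for *Gm8300*, on 20 to 49 UMIs each, and *Nelfa* turned to 0.30. The 10 highest genes kept their place past 1.5-fold. The thinned comparison does not contain the 2 cells, since both were shallower than 18231 UMIs, and there the 4 predicted genes also had ratios above 1.

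Without these cells *Lefty1*, *Fabp3*, *Ninj1* and *Ifi30* stayed past 1.5-fold, and *Snhg12* had a ratio of 0.669 and was no longer counted. In thinned cells 3 of the 10 lowest genes were past 1.5-fold, and in held-out UMIs 8. The held-out comparison keeps the 2 cells, and its 8 genes include the 4 predicted genes and *Nelfa*. Of the other genes, *Lefty1*, *Fabp3* and *Snhg12* passed there, and *Ninj1* (0.715) and *Ifi30* did not. *Lefty1*, a feedback inhibitor of Nodal signaling (chromosome 1, 180935022 to 180938400), had 50.3 CPM in Nanog-low, 19.3 in Nanog-middle and 20.4 in Nanog-high cells, a ratio of 0.405 (0.299 to 0.544), and 12.9% of its S+L ESC UMIs were in 1 cell. *Fabp3*, a fatty acid binding protein gene (chromosome 4, 130308595 to 130315463), had 82.5, 48.9 and 44.1 CPM (0.535, 0.433 to 0.660), with at most 12 UMIs in a cell. Both were high in Nanog-low cells alone, and both kept ratios under 1 in thinned cells (0.297 and 0.706) and in the held-out UMIs (0.485 and 0.458). *Ninj1* had 52.6, 50.2 and 33.3 CPM (0.634, 0.492 to 0.814), *Ifi30*, a lysosomal thiol reductase gene, 40.3, 20.6 and 25.6 CPM (0.637, 0.476 to 0.847, but 0.887 in thinned cells and 0.820 in held-out UMIs), and *Snhg12*, a host RNA of small nucleolar RNAs, 59.1, 48.1 and 38.6 CPM (0.653, 0.516 to 0.825). Among genes with fewer than 200 UMIs, the only ones past 2-fold were *Hes6*, *Ahnak2* and *Gm4027*, which were lower, and *Sfn* and *Skp2*, which were higher. *Hes6* had 29.5, 10.8 and 8.34 CPM and *Skp2*, a cell cycle ubiquitin ligase subunit gene, 12.0, 16.7 and 27.5 CPM. *Gm4027*, another predicted gene, had 145 UMIs in Nanog-low cells, of which 127 were in 1 cell. All of these but *Ahnak2* were named after their values were seen.

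The signaling lists held a single gene past 1.5-fold, *Lefty1*. Of 9 LIF and STAT3 response genes, 9 FGF and ERK response genes and 2 WNT response genes measured, none was past 1.5-fold, and the median log2 ratios were -0.02, -0.03 and -0.04. Of 6 BMP response genes none was past 1.5-fold and 5 had ratios above 1, beside 61.2% of all genes. Their list median was 0.36 beside 0.06 over all genes. *Id1*, a direct BMP target, had 48.0, 39.4 and 63.9 CPM (1.33, 1.07 to 1.65) and *Id3* 25.3, 19.6 and 34.0 CPM (1.34, 0.994 to 1.82), so neither was ordered by group. The ratio of *Id3* was 0.926 in held-out UMIs, 2.11 in thinned cells and 1.96 without the 2 cells rich in 2-cell markers, and 24 of its UMIs were in 1 cell. Of 3 Nodal pathway genes measured, *Lefty1* was lower. None of 6 DNA methylation enzymes, 4 germline genes or 20 glycolysis genes measured was past 1.5-fold.

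A few stress and p53 response genes were lower in Nanog-high cells, where 0.937% of all genes were lower. Of 7 stress and early response genes measured, *Gadd45b* (23.7, 20.9 and 13.6 CPM, ratio 0.573, 0.385 to 0.845) and *Ddit3*, which encodes CHOP (26.6, 22.5 and 17.0 CPM, 0.638, 0.445 to 0.909), were lower. Ratios above 1 were found for 3 of the 7, among them *Asns* (1.27, 1.12 to 1.44). Of 13 p53 targets only *Btg2*, an antiproliferative gene, was lower (28.6, 18.0 and 14.8 CPM, 0.519, 0.357 to 0.746). Ratios above 1 were found for 4 of the 13, beside 61.2% of all genes. Among these 4 were *Sesn2* (1.44, 1.06 to 1.96) and *Bax* (1.09, 1.02 to 1.16). Of 35 S phase genes, *Clspn*, the checkpoint adaptor claspin, was higher (15.3, 19.8 and 24.4 CPM, 1.60, 1.10 to 2.35) and none lower, with a list median of 0.08, and of 47 G2 and M phase genes none was past 1.5-fold, with a median of 0.16. In the held-out UMIs *Clspn* had a ratio of 1.06. Of 13 cytoskeletal and epithelial, 12 mitochondrially encoded, 8 imprinted and 2 fibroblast genes none was past 1.5-fold.

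The gene sets of the study were chosen on libraries of this series, so their direction is not independent evidence. Over all 5018 genes 1.38% were higher, 0.937% lower and 61.2% above 1. Of 261 ESC genes measured, 16 were higher and 4 lower in Nanog-high cells, with 180 ratios above 1 and a median log2 ratio of 0.16. The higher ones included *Tbx3*, *Nfatc2ip*, *Nr0b1* and *Zfp988*, and the lower ones were *Fabp3*, *Ahnak2*, *Trh* and *Lrrc31*. Of 84 EpiLC genes, *Crabp1* and *Acer2* were higher and *Lef1*, *Ddit3*, *Zfp580* and *Ankrd24* lower, and of 34 EpiSC genes *Tle1* was higher and *Btg2*, *Igfbp4* and *Ddit4l* lower, with medians of -0.005 and 0.07. Of 263 PGCLC genes without *Nanog*, 8 were higher, among them *Ticrr* and *Nfatc2ip*, and 6 lower, among them *Lefty1*, with a median of 0.12. *Trh*, *Lrrc31*, *Acer2*, *Zfp580*, *Ankrd24*, *Tle1* and *Ddit4l* were named after their values were seen.

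The measured neighbors of *Nanog* on chromosome 6 differed little between the groups. Of 10 annotated genes within 200 kb, 3 passed the count minimum and none was past 1.5-fold. Their median log2 ratio was 0.13, beside 0.06 over all genes. *Gdf3*, a TGFβ family ligand gene, had 48.4, 52.6 and 53.7 CPM (1.11, 0.887 to 1.39), *Slc2a3*, a glucose transporter gene, 288, 304 and 316 CPM (1.10, 1.0 to 1.20) and *Necap1* 24.3, 15.3 and 21.0 CPM (0.862, 0.612 to 1.21).

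The same ranking in 2i ESC gave 75 cells in the low and high groups, with 52.8 CPM of *Nanog* (44.8 to 61.7) and 201 CPM (184 to 220). Of 4390 genes measured, 64 were at least 1.5-fold higher (1.46%) and 25 lower (0.569%), shares of the same order as in S+L ESC. At such shares few members of any list of this size would be counted. The small overlap below therefore does not show a difference between the media. Of the 69 genes higher in S+L ESC, 53 were measured in 2i ESC, where *Abhd12* and *Mapt* were also higher, *Gng3* was lower and the median log2 ratio was 0.12, against 0.67 for the same genes in S+L ESC and 0.05 over all genes of 2i ESC. Of the 47 lower genes, 19 were measured in 2i ESC, none was lower, *Lefty1* was higher and the median was 0.08 against -0.63 in S+L ESC. *Abhd12*, *Mapt* and *Gng3* were named after their values were seen. The genes were chosen in S+L ESC, so its medians are raised by that choice.

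Among the factors, *Tbx3* was at 143, 147 and 146 CPM across the 2i groups (ratio 1.02, 0.887 to 1.18), *Ticrr* at 29.9, 34.4 and 30.7 CPM (1.03, 0.743 to 1.41) and *Nfatc2ip* at 88.4, 91.1 and 95.9 CPM (1.08, 0.905 to 1.30). *Zfp42* had 449, 453 and 500 CPM (1.11, 1.03 to 1.21) and *Epop* 124, 149 and 148 CPM (1.19, 1.03 to 1.38). For *Tbx3*, *Ticrr*, *Nfatc2ip*, *Zfp42* and *Epop* the counting interval in 2i ESC lay below that in S+L ESC without overlap. The opposite was found for 2 genes of the naive list. *Klf2* had a ratio of 1.31 (1.22 to 1.41) in 2i ESC and 1.09 (1.01 to 1.18) in S+L ESC. *Dppa5a* had 1.20 (1.17 to 1.23) in 2i ESC and 1.05 (1.03 to 1.08) in S+L ESC. These differences between single libraries were not tested. *Ticrr*, *Nfatc2ip* and *Epop* had been chosen for their ratios in S+L ESC, and *Tbx3* also ranked among the 10 highest there. *Klf4* (1.19, 1.07 to 1.32), *Sox2* (1.13, 1.01 to 1.27) and *Nr0b1* (1.21, 0.983 to 1.49) had overlapping intervals in both media. The naive list had a median log2 ratio of 0.25 in 2i ESC with 15 of 16 ratios above 1, close to the 0.29 of S+L ESC. The core list had -0.03 with 7 of 15 above 1. Over all 4390 genes of 2i ESC 60.5% of ratios were above 1. The contrast in *Nanog* itself was smaller in 2i ESC, as given above for the held-out UMIs. Its part in the smaller 2i ratios of genes such as *Tbx3* was not tested.

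**Figure D5:**
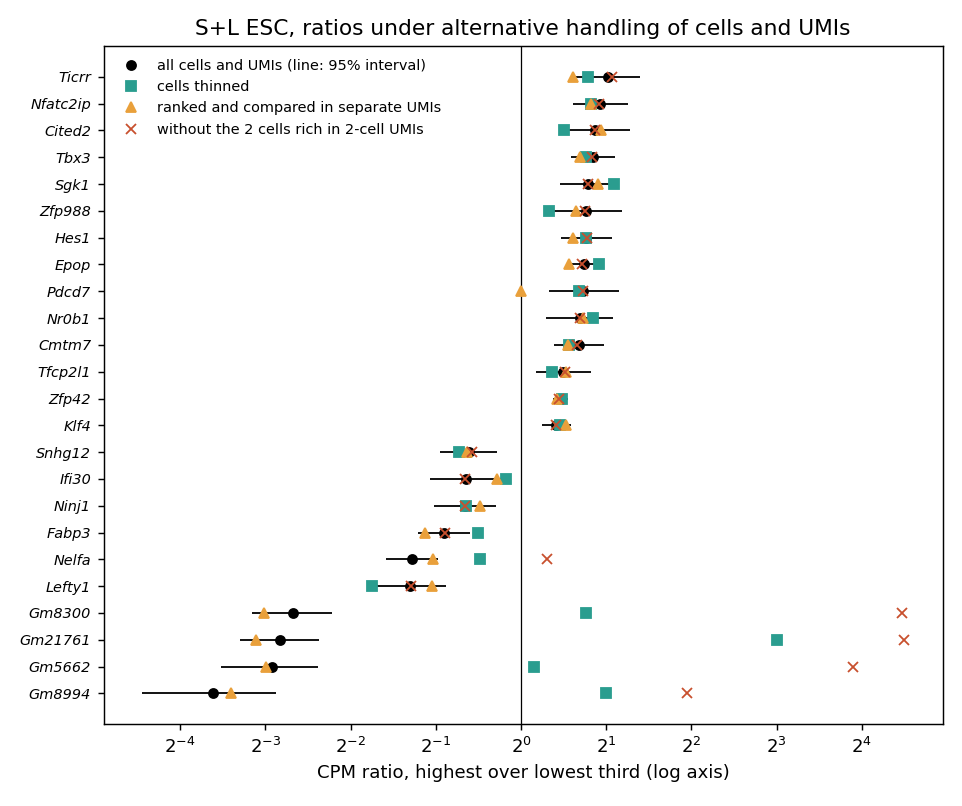
CPM ratios of Nanog-high over Nanog-low S+L ESC (horizontal log axis) for 24 genes, from all cells and UMIs (black points with exact 95% intervals), from thinned cells, from held-out UMIs not used for the ranking, and without the 2 cells rich in 2-cell UMIs. *Zfp42*, *Klf4* and *Tbx3* stay above 1 and *Lefty1* and *Fabp3* below 1 in each, whereas *Gm8994*, *Gm5662*, *Gm21761* and *Gm8300* cross 1 where the 2 cells are absent.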

How the data were processed

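The authors deposited UMI counts per gene and cell, made with Cell Ranger 2.1.0 on GRCm38 and aggregated over 8 libraries of the E14Tg2a line to equal mapped reads per cell, so depths were partly evened out before deposit. Cells were assigned to libraries by barcode suffix. The table held 27998 genes in 2782 cells. Counts of the R1 line were not used here. Symbols and positions came from a GENCODE annotation of GRCm38. The deposited header was broken by an empty line and was rejoined.

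UMIs were summed per group and scaled to CPM. Levels have exact Poisson, ratios exact conditional and shares Clopper-Pearson intervals at 95%, for counting error only, and a count of 0 was read as at most 3 counts. Ratios are of CPM as such, and log2 ratios and the 1.5-fold rule have 1 CPM added to both levels, which understates changes of low genes. Genes needed 100 UMIs in both outer groups together. *Nanog* was left out of all counts and lists. No test was run, because each condition was 1 library. UMIs were thinned without replacement with seed 1, to 18231 per cell (the 10th percentile of S+L ESC), and the median depth was 28909. Thinning left out 17 Nanog-low, 6 Nanog-middle and 8 Nanog-high cells. Doublets were called with Scrublet in scanpy 1.11.5 and kept. Python 3.11.15, numpy 2.4.6, scipy 1.17.1, pandas 2.3.3 and matplotlib 3.10.9 were used, and the comparison was tested on simulated data.

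Named genes were the 10 highest and 10 lowest ratios past 1.5-fold with at least 200 UMIs, members of the naive, core and formative lists past 1.5-fold, 12 fixed genes, and from every other list up to 2 members farthest from 1 that reach 1.5-fold. Further genes are named as list members or after their values were seen. The groups and the 24 gene lists, written from general knowledge, were chosen with earlier results of these data known.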

Additional observations from a re-analysis of the deposited data

Results flagged for a closer look

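*Lefty1* and *Gng3* were past 1.5-fold in opposite directions in the 2 media. The log2 ratio of *Lefty1* was -1.26 in S+L ESC (50.3, 19.3 and 20.4 CPM) and 0.78 in 2i ESC (27.2, 42.9 and 47.5 CPM, ratio 1.75, 1.30 to 2.35). That of *Gng3*, a G protein subunit gene, was 0.62 in S+L ESC (43.2, 59.2 and 67.0 CPM, ratio 1.55, 1.24 to 1.94) and -0.60 in 2i ESC (ratio 0.644, 0.418 to 0.975). In thinned S+L ESC the ratio of *Gng3* was 1.14 and in the held-out UMIs 1.30. Each medium was 1 library and the difference was not tested. These were the only such genes among 72 past 1.5-fold in S+L ESC that were measured in both libraries.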

How the results depend on the processing

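The counts of genes past 1.5-fold varied widely between settings. With 69 higher and 47 lower as reported, there were 178 and 146 with a minimum of 50 UMIs, 23 and 13 with 200, 1318 and 1214 with no minimum, and 2 and 9 at 2-fold. Cells with 0 against those with at least 1 *Nanog* UMI gave 641 and 394, where the first group had 31 cells. Lower genes were 30 in thinned cells, 30 in held-out UMIs, 25 without shallow cells and those of high mitochondrial share, and 30 without the 9 cells with at least 9 2-cell UMIs (an alternative chosen after seeing the data, as was leaving out the richest 2). Higher genes were 139 with the outer groups of 4 in place of 3, 119 with means of single-cell CPM and 43 after division by the median ratio. The remaining alternatives moved neither count by more than 1.5 times: depth bins, G2 and M phase classes, tie order, doublets left out, a pseudocount of 0.1 CPM and leaving out 2 cells. The genes counted changed more than the counts. Of the 69 higher and 47 lower genes, 40 and 29 were still counted within depth bins. Within G2 and M phase classes 40 and 33 were still counted, and without doublets 57 and 36. All 69 and 47 kept their direction in these 3 settings.

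Among named genes past 1.5-fold, directions turned as follows, with these log2 ratios. In thinned cells *Gm8994* was at 0.63, *Gm5662* at 0.13, *Gm21761* at 2.46, *Gm8300* at 0.68 and *Igfbp4* at 0.27. In held-out UMIs *Pdcd7* was at -0.004 and *Crabp1* at -0.01, and *Crabp1* was at -0.16 for cells without a *Nanog* UMI. Without shallow cells *Gm8994* was at 0.01, *Gm5662* at 2.28, *Gm21761* at 1.39, *Gm8300* at 3.12 and *Nelfa* at 0.07. Without the richest 2 cells they were at 1.39, 2.70, 3.25, 3.22 and 0.30, and without the 9 cells *Gm8994* was at 0.21, *Gm5662* at 0.66 and *Gm8300* at 1.56. Each of these last 3 settings, like thinning, leaves out the 2 cells, and the cause of the other turns was not tested. Of genes under 1.5-fold or the count minimum, *Otx2* turned to 0.18 in held-out UMIs and *Dppa3* to 0.32 for cells without a *Nanog* UMI, and *Id3* and *Gdf3* had held-out ratios of 0.926 and 0.912. Apart from the settings that change the count minimum, the naive median stayed between 0.23 and 0.38, *Zfp42* between 0.41 and 0.61 and *Tbx3* between 0.69 and 1.18. No paired analysis was possible because each condition was 1 library and no test was run.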

Other observations

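Further groups were looked at after their values were seen, and are given as descriptions. Of 7 measured host RNAs of small nucleolar RNAs all had ratios under 1 in S+L ESC, with *Snhg12* past 1.5-fold lower and a median log2 ratio of -0.36. *Zfas1* had 274, 228 and 184 CPM in Nanog-low, Nanog-middle and Nanog-high cells (0.672, 0.604 to 0.748) and *Snhg6* 221, 199 and 177 CPM (0.800, 0.715 to 0.896). In 2i ESC all 6 measured ones were also under 1, with a median of -0.04. Of 76 ribosomal protein genes 71 had ratios under 1 in S+L ESC and 70 in 2i ESC, with a median of -0.07 in both. Over all genes, 61.2% of ratios in S+L ESC and 60.5% in 2i ESC were above 1.

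Of 9 measured PRC2 subunits and partners, 8 had ratios above 1 in S+L ESC, beside 61.2% of all genes, and *Epop* was past 1.5-fold. *Mtf2*, which recruits PRC2 to CpG-rich DNA, had 252 CPM in Nanog-middle and 321 CPM in Nanog-high S+L ESC (ratio to Nanog-low cells 1.40, 1.28 to 1.55) and a ratio of 1.20 (1.06 to 1.35) in 2i ESC, while the catalytic subunit *Ezh2* had 178, 168 and 194 CPM (1.09, 0.973 to 1.23).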
